A study of Mus musculus with 6 samples.

Results

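Tetraspanin genes were described in fibroblasts sorted from mouse lung tumours. The 10 genes are Tspan5, Tspan8, Tspan11, Tspan12, Tspan15, Tspan33, Cd9, Cd63, Cd81 and Cd82, taken by symbol from the 55298 genes of the files, and each matched 1 gene. They were picked with their values in this comparison in view, so their differences between the groups are given as a description with no p-value. RNA-seq covered 3 libraries of cancer-associated fibroblasts (CAFs) carrying MHC class II, named apCAFs 1, 2 and 3 for antigen-presenting CAFs, and 3 of CAFs lacking it, named nonapCAFs 4, 5 and 6. All came from orthotopic lung tumours of C57BL/6 wt mice over 8 weeks old, and each library was made from pooled tumours and so does not represent 1 animal, with both populations sorted at the same time in independent experiments. Sorting kept cells with high forward scatter that carried PDPN (PDPL in the labels) and PDGFRA and lacked the tumour reporter mCherry and the leukocyte, endothelial and epithelial proteins CD45, CD31 and EPCAM. Values are gene counts as the authors normalized and rounded them. Sequencing depth is unknown, and p-values measure only the spread between these libraries.

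Some libraries were closer to each other than the rest. Across the 17829 genes averaging 100 or more, the log2 ratio had an SD of 0.24 between apCAFs 1 and 2 and of 0.25 between nonapCAFs 4 and 5, but 0.48 to 0.71 in the remaining within-group pairs. The 8 fibroblast markers were present in every library, with summed values of 2803387 to 4232696 in apCAFs and 1194730 to 1430171 in nonapCAFs. Most of each sum came from the collagen genes Col1a1, Col1a2 and Col3a1. Of the 8, 7 had every apCAFs library above, against 17.1% of all measured genes. Lum had every apCAFs library below, at 8086 to 11304 against 15611 to 21256 in nonapCAFs, as did 15.4% of all measured genes. Markers of alveolar type II cells, which make surfactant, summed to 87884, 72163 and 1157 in apCAFs 1, 2 and 3, against 1755 to 2286 in nonapCAFs. The sum of 8 mesothelial markers, from the lining of the pleura, was 36222 to 47803 in apCAFs and 4952 to 5551 in nonapCAFs. No mesothelial or type II marker was at 0 in any library. In sorted bulk RNA, fewer cells of a type and less RNA per cell cannot be told apart.

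Tetraspanins are small proteins that cross the membrane several times and carry a small and a large loop outside the cell. They bind each other and their partner proteins side by side, and so hold integrins, proteases and immune receptors in shared patches of membrane. One subgroup, called TspanC8 for the cysteines of its large loop, escorts the protease ADAM10 out of the endoplasmic reticulum and steers which proteins it cuts. Others are known as carriers of signalling receptors or as cargo of late endosomes and of the vesicles that cells release.

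The large loop of every tetraspanin holds a cysteine-cysteine-glycine signature, and the coding stretches for it are shown because they define the family. A search of each coding sequence, in frame, for 2 successive TGT or TGC codons followed by a GGN codon found such a match between codon 145 and codon 159 in all 10 genes. The matches are in capitals, with 15 bases of coding sequence on each side, read 5′ to 3′ on the coding strand from GENCODE M21 transcripts (GRCm38).
Tspan5: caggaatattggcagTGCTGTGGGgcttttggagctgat
Tspan15: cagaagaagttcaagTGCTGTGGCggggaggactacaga
Tspan33: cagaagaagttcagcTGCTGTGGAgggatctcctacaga
Tspan12: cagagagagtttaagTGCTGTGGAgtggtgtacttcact
Tspan8: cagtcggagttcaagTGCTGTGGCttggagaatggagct
Tspan11: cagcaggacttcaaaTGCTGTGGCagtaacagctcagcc
Cd9: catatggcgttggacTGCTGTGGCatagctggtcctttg
Cd63: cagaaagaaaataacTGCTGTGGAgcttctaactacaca
Cd81: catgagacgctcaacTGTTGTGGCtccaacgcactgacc
Cd82: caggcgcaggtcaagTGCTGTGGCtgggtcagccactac
The triplets lie at chr3:138896795-138896803 in Tspan5, chr10:62191570-62191578 in Tspan15, chr6:29716711-29716719 in Tspan33, chr6:21795707-21795715 in Tspan12 and chr10:115839881-115839889 in Tspan8. Those of the others lie at chr6:127943223-127943231 in Tspan11, chr6:125462189-125462197 in Cd9, chr10:128912167-128912175 in Cd63, chr7:143066667-143066675 in Cd81 and chr2:93420741-93420749 in Cd82. Tspan15, Tspan12, Cd9 and Cd82 are read from the minus strand and the others from the plus strand. No match was split by an intron. In 9 of the 10 genes the first codon of this match was TGC, and in Cd81 it was TGT. Tspan8, Cd9 and Cd63 had a further match at codons 74, 76 and 72, and Cd81 had one at codon 227.

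Of the 10 genes, 9 had every apCAFs library above every nonapCAFs library, against 17.1% of all 36443 genes measured in at least 1 library and 25.5% of those averaging 100 or more. The exception was Cd9, whose groups overlapped; 15.4% of all genes had every apCAFs library below. The median log2 fold change of the 10 was 1.29, against -0.04 over all measured genes. limma, fitted to log2(value + 1) across all measured genes, put 7 of the 10 past an adjusted p of 0.05, all higher in apCAFs, against 4.4% of all genes called in either direction, 3.91% higher and 0.486% lower, and 5.94% called among genes averaging 100 or more. Because the genes were picked on this contrast, these counts are no test of them, and nothing further is read from the counts. The count of 7 became 1, 0 and 4 without apCAFs 1, 2 and 3, and 1, 0 and 2 without nonapCAFs 4, 5 and 6. It was 4 with values scaled to library totals, and 8 with a variance trend. Among genes averaging 100 or more, a filter that leaves out Tspan33, it was also 8. It was 0 with the close libraries averaged or with an experiment term, under each of the 6 ways of pairing apCAFs with nonapCAFs.

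**Figure D1:**
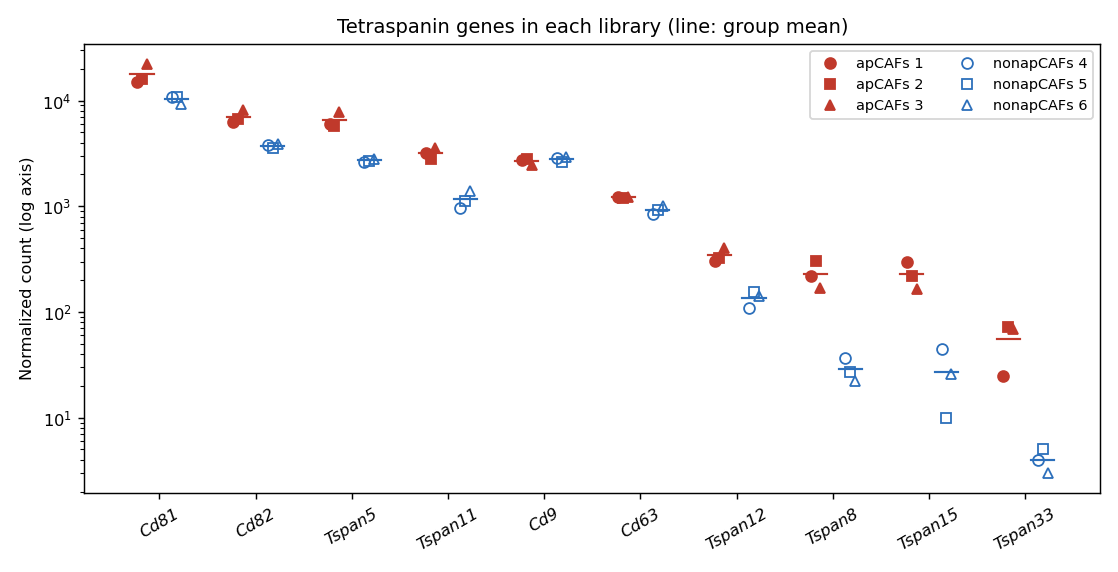
Normalized count of each of the 10 tetraspanin genes (log axis) in apCAFs 1 to 3 (filled, left) and nonapCAFs 4 to 6 (open, right), with lines at the group means of 3 libraries. The groups separate for every gene except Cd9, from Cd81 at the top to Tspan33, with 3 to 5 in nonapCAFs.

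The ADAM10-escorting genes Tspan5, Tspan15 and Tspan33 were each higher in apCAFs. Tspan5 read 5962, 5718 and 7782 in apCAFs 1, 2 and 3, against 2644, 2710 and 2796 in nonapCAFs 4, 5 and 6. The groups lay far apart beside the narrow range of nonapCAFs, and apCAFs 3 was the highest library. The fold change was 2.37 (log2 1.24, SE 0.17, n = 3 and 3). Tspan15, whose product favours ADAM10 cutting of cadherins, read 298, 219 and 165 in apCAFs 1, 2 and 3, against 45, 10 and 26 in nonapCAFs 4, 5 and 6. The lowest apCAFs library, apCAFs 3, was still above the highest nonapCAFs library, and nonapCAFs spread over more than their own mean. The fold change was 9.28 (log2 3.21, SE 0.58). Tspan33, first described in blood cell precursors, read 25, 72 and 69 in apCAFs 1, 2 and 3, against 4, 5 and 3 in nonapCAFs 4, 5 and 6. It was the 1 gene of the 10 with a mean value under 100, and its log2 fold change of 3.37 (SE 0.46) was 2.13 with a pseudocount of 10 in place of 1.

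The other TspanC8 genes, named after their values were seen, did not show the same difference. Tspan14 read 3427, 2958 and 2077 in apCAFs 1, 2 and 3, against 4248, 4421 and 4006 in nonapCAFs 4, 5 and 6, with apCAFs below in every library (log2 -0.61, SE 0.22, limma adjusted p = 0.229). Tspan17 read 1862, 1843 and 1715 in apCAFs, against 2160, 2072 and 2402 in nonapCAFs (log2 -0.29, SE 0.14, limma adjusted p = 0.305). Tspan10 was at 0 in all 6 libraries. Of the 6 TspanC8 genes, 3 were above in apCAFs, 2 lay below without passing the test and 1 was not detected. Over all genes, 17.1% had every apCAFs library above and 15.4% every one below. The 3 genes above were picked with these values in view, so nothing is read from this split about the subgroup.

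Stretches of 250 bases before the RefSeq starts of the ADAM10-escorting genes are shown because all 3 genes were higher in apCAFs (RefSeq, GRCm38.p6, 5′ to 3′ on the gene's strand). Capitals mark the motifs searched on both strands: the GC box GGGCGG, the CCAAT box, the TATA motif TATAAA, the STAT motif TTCNNNGAA, the interferon motif of a pair of GAAA blocks 2 bases apart and the TEAD motif CATTCC.
Tspan5: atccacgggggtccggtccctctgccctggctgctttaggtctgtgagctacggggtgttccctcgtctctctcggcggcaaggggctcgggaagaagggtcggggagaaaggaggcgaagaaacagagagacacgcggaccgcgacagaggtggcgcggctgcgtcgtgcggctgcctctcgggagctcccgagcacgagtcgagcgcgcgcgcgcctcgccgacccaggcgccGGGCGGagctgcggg
Tspan15: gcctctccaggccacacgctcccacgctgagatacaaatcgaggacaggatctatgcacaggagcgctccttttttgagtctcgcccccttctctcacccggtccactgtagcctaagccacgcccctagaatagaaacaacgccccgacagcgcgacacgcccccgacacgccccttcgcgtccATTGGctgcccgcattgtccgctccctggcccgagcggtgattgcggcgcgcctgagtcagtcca
Tspan33: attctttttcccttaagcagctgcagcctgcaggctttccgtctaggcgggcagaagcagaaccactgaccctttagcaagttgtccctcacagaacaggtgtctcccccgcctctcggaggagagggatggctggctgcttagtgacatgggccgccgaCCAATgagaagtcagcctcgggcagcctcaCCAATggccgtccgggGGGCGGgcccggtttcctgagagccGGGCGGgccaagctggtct
The windows are chr3:138741958-138742207 on the plus strand, chr10:62231219-62231468 on the minus strand and chr6:29693964-29694213 on the plus strand. Tspan5 held 1 GC box and 33 CpG pairs, Tspan15 held 1 CCAAT box and 23 CpG pairs, and Tspan33 held 2 GC boxes, 2 CCAAT boxes and 13 CpG pairs, against a median of 6 CpG pairs over 32851 promoter windows. Of all windows, 32.7% held a GC box and 33.9% a CCAAT box. The STAT motif (7.02% of all windows) and the interferon motif (2.98%) had no match in the windows of any of the 10 genes, over all 4 starts of Cd82. Of the 10 genes, only Tspan12 held the TATA motif (12.4% of all windows) and only Cd82 the TEAD motif (12.6%). CpG pairs numbered 5 in Tspan12, 4 in Tspan8, 4 in Tspan11 and 6 in Cd63. They numbered 16 in Cd9, 16 in Cd81 and 3 to 14 over the starts of Cd82.

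Tspan12, which joins the Norrin receptor frizzled 4 and raises its signalling in retinal vessels, was also higher in apCAFs. It read 305, 323 and 399 in apCAFs 1, 2 and 3, against 109, 155 and 142 in nonapCAFs 4, 5 and 6. The gap between the groups was wider than the range within either. The fold change was 2.53 (log2 1.34, SE 0.20), and the log2 value was 0.98 with quantile-normalized values.

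Tspan8 and Tspan11 had the same order of groups at very different levels. Tspan8, known from epithelial tumours and their vesicles, read 218, 305 and 167 in apCAFs 1, 2 and 3, against 37, 27 and 22 in nonapCAFs 4, 5 and 6. The gap between the groups was wider than the range within nonapCAFs, and the fold change was 7.72 (log2 2.95, SE 0.31). Tspan11, whose product is less well studied, read 3221, 2819 and 3522 in apCAFs 1, 2 and 3, against 959, 1132 and 1388 in nonapCAFs 4, 5 and 6. All apCAFs libraries were far above nonapCAFs 6, the highest of its group, and the fold change was 2.77 (log2 1.47, SE 0.20).

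The classical CD tetraspanins differed less between the groups. Cd81, whose product partners integrins on many cells, read 15152, 15943 and 21988 in apCAFs 1, 2 and 3, against 10718, 10827 and 9227 in nonapCAFs 4, 5 and 6. The groups did not overlap, and apCAFs 3 stood above the other apCAFs libraries. The fold change was 1.71 (log2 0.77, SE 0.20). The lncRNA gene R74862 overlaps Cd81 on the opposite strand and read 1532 to 2212 in apCAFs and 1062 to 1328 in nonapCAFs; the strand setting of the counting is not given in the sources used here, so reads of the pair cannot be told apart. Cd82, first described as a metastasis suppressor, read 6300, 6760 and 8089 in apCAFs 1, 2 and 3, against 3795, 3530 and 3872 in nonapCAFs 4, 5 and 6. Its groups were separated by a gap several times the range within nonapCAFs, with a fold change of 1.88 (log2 0.91, SE 0.16).

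Cd63 and Cd9 are given with their near-identical copies, which were chosen after their values were seen. Cd63, a marker of late endosomes and released vesicles, read 1225, 1208 and 1228 in apCAFs 1, 2 and 3, against 839, 914 and 1015 in nonapCAFs 4, 5 and 6. The groups did not overlap, and the fold change was 1.33 (log2 0.41, SE 0.14). The log2 value fell to 0.26 with values scaled to library totals and to 0.24 with quantile-normalized values. Cd63-ps, a processed pseudogene on chromosome 18 (50134726 to 50135600), aligned to Cd63 over 858 bases with 98.02% identity. It read 44015, 47383 and 47691 in apCAFs 1, 2 and 3, against 39087, 38298 and 39141 in nonapCAFs 4, 5 and 6. The copy thus held 97.3% to 97.5% of the value of the pair in apCAFs and 97.5% to 97.9% in nonapCAFs. How the authors assigned reads that match both is not given in the sources used here, so the pair cannot be told apart. The sum of the pair averaged 47583 ± 2036 in apCAFs and 39765 ± 492 in nonapCAFs (SD, n = 3 each), 1.196-fold higher in apCAFs (log2 0.26). This sum was not rescaled to library totals, which were higher in every apCAFs library than in any nonapCAFs library.

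Cd9, a partner of integrins and of the fusion and fertilization machinery, read 2735, 2780 and 2450 in apCAFs 1, 2 and 3, against 2851, 2644 and 2955 in nonapCAFs 4, 5 and 6. The groups overlapped (log2 -0.09, SE 0.14). Its processed copy Cd9-ps on chromosome 7 (41682658 to 41683307) aligned over 665 bases with 91.13% identity and read 8315, 8402 and 7765 in apCAFs 1, 2 and 3, against 9700, 9602 and 10141 in nonapCAFs 4, 5 and 6. In the copy and in the sum of the pair, each apCAFs library lay below each nonapCAFs library. The sum averaged 10816 ± 524 in apCAFs and 12631 ± 431 in nonapCAFs (SD, n = 3 each), and the log2 fold change was -0.22 for the sum. With values scaled to library totals, Cd9 alone gave -0.24. The lncRNA genes Gm26728 and Gm28809 overlap Cd9 on the opposite strand. Gm26728 read 272 to 341 in apCAFs and 286 to 332 in nonapCAFs. Gm28809 read 45 to 67 in apCAFs and 73 to 140 in nonapCAFs. As at Cd81, the strand setting is not given, so reads of these genes and Cd9 cannot be told apart. A search of all GENCODE transcripts for copies with at least 90% identity over at least 300 bases found none for the other 8 genes.

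**Figure D2:**
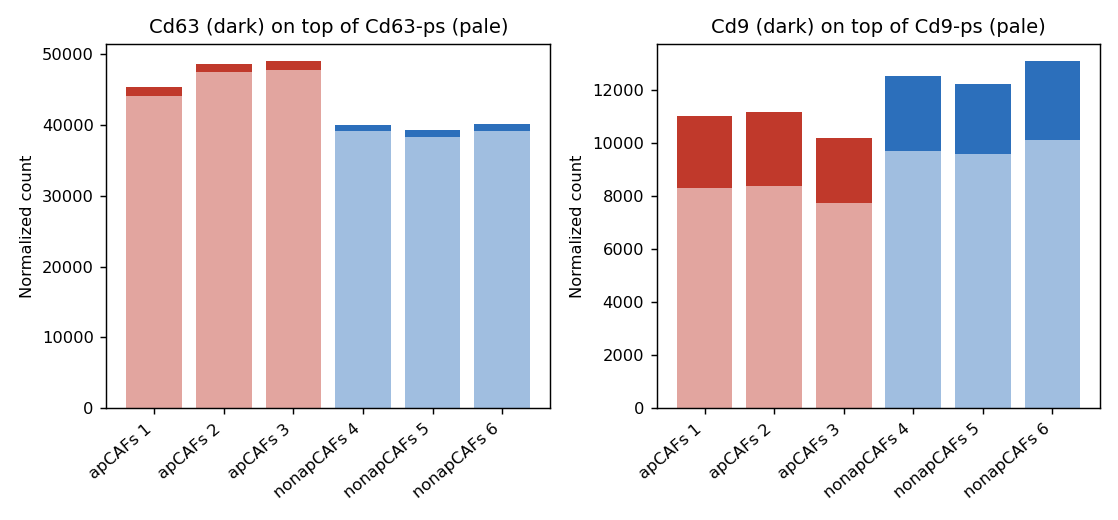
Normalized counts of Cd63 (left, dark) stacked on its copy Cd63-ps (pale), and of Cd9 (right, dark) stacked on Cd9-ps (pale), for apCAFs 1 to 3 (red) and nonapCAFs 4 to 6 (blue). The copies hold most of each bar, and the Cd63 pair is taller in apCAFs while the Cd9 pair is shorter.

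Levels of different genes were set side by side per kilobase of annotated exon. Cd81 was the highest in apCAFs at 6146 ± 1299 per kilobase, against 3563 ± 311 in nonapCAFs (SD, n = 3 each). In apCAFs it was followed by Cd82 (2346), Cd9 (1299), Tspan5 (878), Tspan11 (598) and Cd63 (331), each outside the range of the next. Tspan8, at 98.1 to 179 per kilobase, and Tspan12, at 92.1 to 121, overlapped in apCAFs, and Tspan15 (27.8) and Tspan33 (10.7) came last. In nonapCAFs the order differed at 3 places by mean: Cd9 (1378) stood above Cd82 (1242), Cd63 (251) above Tspan11 (218) and Tspan12 (40.9) above Tspan8 (16.8). Of these, Cd63 and Tspan11 overlapped between libraries. Per kilobase, the copies Cd63-ps (52986 in apCAFs and 44391 in nonapCAFs) and Cd9-ps (12555 in apCAFs and 15099 in nonapCAFs) lay above Cd81, so the places of Cd63 and Cd9 in this order depend on where their reads were counted.

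The genes also differed in which apCAFs library was highest. Tspan5, Tspan12, Tspan11, Cd63, Cd81 and Cd82 had their highest apCAFs value in apCAFs 3, by a narrow margin for Cd63, while Tspan15, Tspan8 and Cd9 had their lowest there. The fibroblast marker sum, mostly collagen genes, was also highest in apCAFs 3, though the fibroblast marker Lum was lowest there. The type II marker sum was high in apCAFs 1 and 2. In apCAFs 3, Tspan8 read 167 and Tspan15 165, against nonapCAFs ranges of 22 to 37 and 10 to 45. The type II sum was 1157 in apCAFs 3. Like those of nonapCAFs, it was mostly Lamp3, at 800 in apCAFs 3 and 1530 to 1903 in nonapCAFs. Of the other type II markers in apCAFs 3, Sftpc lay above every nonapCAFs library, Napsa and Sftpd below, and the rest within the range. Of the epithelial markers, Cldn3, Cdh1 and Epcam in apCAFs 3 also lay above every nonapCAFs library, and Cldn7, Krt8 and Krt18 below. The mesothelial marker sum was high in all 3 apCAFs libraries, and limma called 6 of the 8 markers higher. Of the rest, Calb2 lay above in apCAFs without passing, and Bnc1 overlapped between the groups. The 9 tetraspanins whose groups separated were also high in all 3 apCAFs libraries, as were 17.1% of all genes. Markers of alveolar type I cells, the flat cells of gas exchange, summed to 5518 to 5801 in apCAFs and 2183 to 3688 in nonapCAFs. Of these 6 markers limma called 3 higher, Akap5, Aqp5 (22.9-fold) and Clic5 (18.9-fold), while Hopx and Rtkn2 averaged less in apCAFs without passing; none was at 0 in any library. The part of such cells in the tetraspanin values was not tested.

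**Figure D3:**
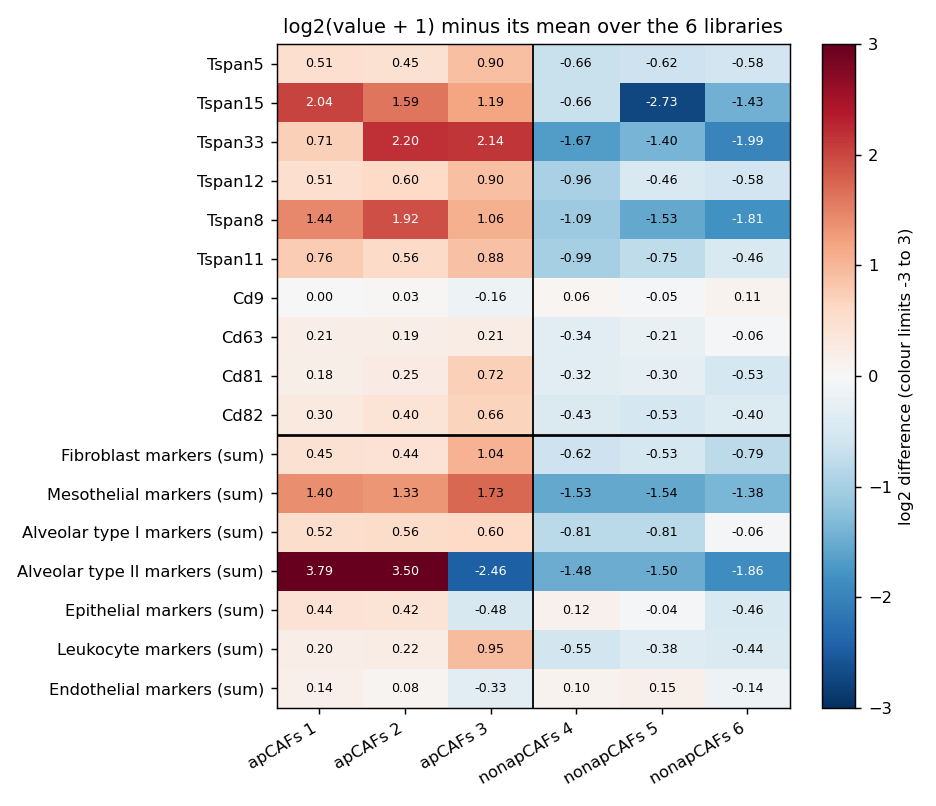
log2(value + 1) minus its mean over the 6 libraries, for the 10 tetraspanin genes (above the line) and for the summed values of 7 marker lists (below), with apCAFs left and nonapCAFs right. Type II markers are high in apCAFs 1 and 2 only, at 3.79 and 3.50. Tspan8 and Tspan15 have their lowest apCAFs values in apCAFs 3, at 1.06 and 1.19.

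For each gene, the pair of genes with the most similar profile over the 6 libraries was found by the root mean square difference of centred log2 values. Candidates were genes averaging 100 or more, without those bearing clone or predicted-gene symbols. Tspan5 was nearest to Pi15 (0.05) and Sspn (0.05), Tspan11 to Prelp (0.08) and Pik3ip1 (0.11), and Cd81 to Por (0.04) and Rrbp1 (0.05). Tspan12 was nearest to Gpr176 (0.11) and Pcbd1 (0.13), Tspan8 to Cd24a (0.21) and Rgs4 (0.21), and Cd63 to Stom (0.04) and Samhd1 (0.05). Cd9, which varied little, was nearest to Scamp4 (0.02) and Imp3 (0.02). The faint Tspan15 and Tspan33 had no candidate as close, and genes as faint as Tspan33 were not candidates. The nearest were Galnt6 (0.31) and Atp8a1 (0.41) for Tspan15, and Tmem154 (0.38) and Tll1 (0.40) for Tspan33. Cd82 was nearest to Ifitm3 (0.06) and to Mir7001 (0.06), which lies within Cd82 on the same strand.

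The rest of the family was tested with the same limma fit. Of 21 other tetraspanin genes 20 were measured, and limma called 2 higher and none lower, against 4.4% of all genes called. Of the 20, 12 had every apCAFs library above and 2, Tspan14 and Tspan17, every one below. The shares over all genes were 17.1% and 15.4%. The median log2 fold change of the 20 was 0.66, against -0.04 over all measured genes. Upk1b, a tetraspanin of urothelium that is also used as a mesothelial marker, read 4243, 4109 and 4176 in apCAFs 1, 2 and 3, against 264, 325 and 450 in nonapCAFs 4, 5 and 6 (12.3-fold, SE 0.23 in log2, limma adjusted p = 0.00863). Cd53, a tetraspanin of leukocytes, read 250, 274 and 395 in apCAFs 1, 2 and 3, against 41, 50 and 38 in nonapCAFs 4, 5 and 6 (6.89-fold, SE 0.23 in log2, limma adjusted p = 0.0119). The groups of both genes were far apart. Both calls held without any single library, and both were lost with an experiment term. Beside Cd53, the 8 leukocyte markers summed to 1892 to 3175 in apCAFs and 1123 to 1260 in nonapCAFs, and 0 of 8 were called by limma (3 at an unadjusted p under 0.05). Adgre1 and Cd3e were at 0 in nonapCAFs 4. The part of leukocyte RNA was not tested. Cd151, an integrin partner named after its values were seen, read 9602, 9844 and 15379 in apCAFs, against 5185, 4928 and 5977 in nonapCAFs (limma adjusted p = 0.0767).

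**Figure D4:**
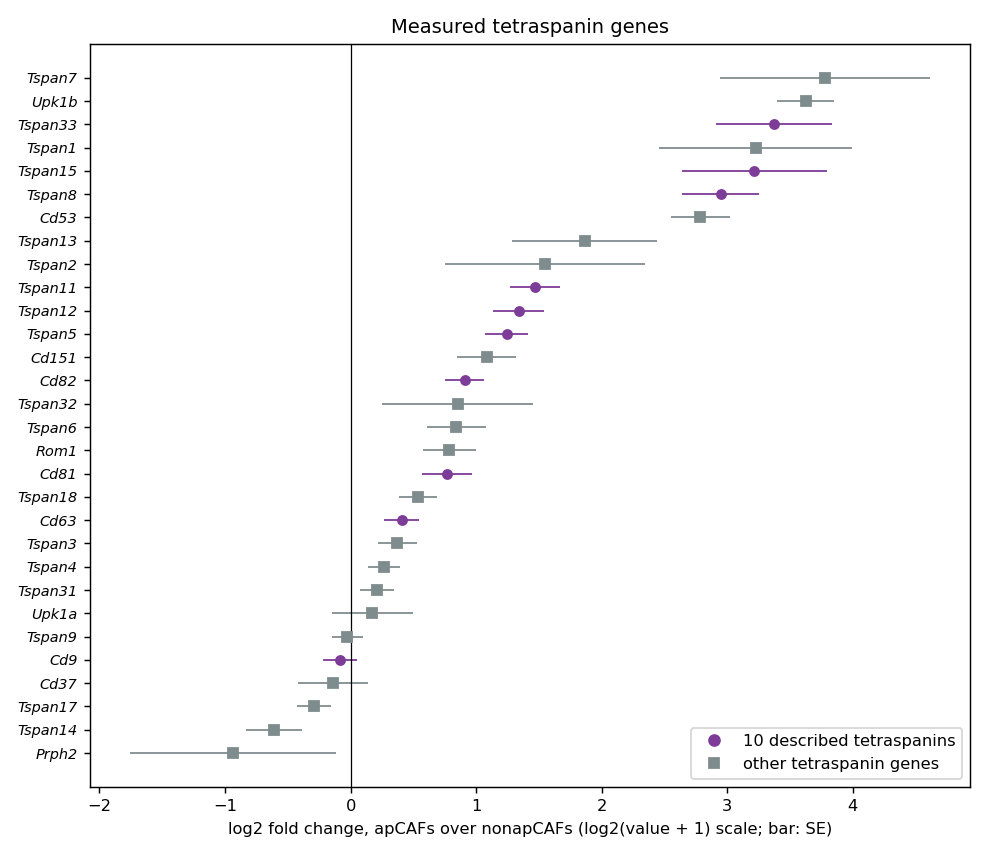
log2 fold change, apCAFs over nonapCAFs on the log2(value + 1) scale, for the 10 tetraspanin genes (circles) and the 20 other measured tetraspanin genes (squares), with bars for limma's standard error. Values run from -0.94 for Prph2, which was at 0 in all libraries but nonapCAFs 4, to 3.78 for Tspan7.

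ADAM10 and the genes of proteins it cuts were examined beside its escorts. Adam10 itself read 13262, 12658 and 12227 in apCAFs 1, 2 and 3, against 12166, 12530 and 10779 in nonapCAFs 4, 5 and 6 (log2 0.11, SE 0.14, limma adjusted p = 0.641). Its groups overlapped. Of the 20 genes of the list, 6 rose and none fell, against 4.4% of all genes, with a median log2 fold change of 0.33. App, the amyloid precursor gene, read 57985, 58816 and 109553 in apCAFs, against 11041, 11912 and 13151 in nonapCAFs (6.00-fold, limma adjusted p = 0.0185). Cxcl16, a membrane-bound chemokine, was 5.46-fold higher (limma adjusted p = 0.0128), and the ephrin receptor gene Ephb2 3.77-fold (limma adjusted p = 0.0277). Efnb1, an ephrin, was 5.53-fold higher (limma adjusted p = 0.0344). The other 2 called genes were Efna5 and Notch3. Without apCAFs 1 or 2, or nonapCAFs 4, 5 or 6, only 1 of the list was called, Cxcl16 each time, and with an experiment term 0 were called under any of the 6 pairings. Notch1 read 6219 to 8259 in apCAFs and 6111 to 8491 in nonapCAFs, and Cdh1, an epithelial cadherin, read 786, 602 and 111 in apCAFs, against 33, 36 and 2 in nonapCAFs (limma adjusted p = 0.137). Cdh2, another cadherin gene, read 4677, 4348 and 10531 in apCAFs, against 2026, 2061 and 2249 in nonapCAFs (limma adjusted p = 0.106). In the list, 8 genes had every apCAFs library above and 3 (Btc, Met and Notch2) every one below, against 17.1% and 15.4% of all genes.

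The Norrin receptor list, set beside Tspan12, gave 0 called genes of 9 in limma, against 4.4% of all genes, and a median log2 fold change of 0.17. At an unadjusted p under 0.05 it held 2 higher genes and 1 lower gene, against 4764 higher and 2257 lower of all 36443. Its most abundant genes were Ctnnb1, which encodes beta-catenin, with 60991 to 63690 in apCAFs and 52649 to 66446 in nonapCAFs, and Apcdd1, a Wnt inhibitor gene, with 5478 to 13653 in apCAFs and 21474 to 22779 in nonapCAFs (limma adjusted p = 0.193). Fzd4, which encodes frizzled 4, read 1851, 1764 and 2409 in apCAFs 1, 2 and 3, against 881, 1157 and 951 in nonapCAFs 4, 5 and 6 (2.01-fold, limma adjusted p = 0.0609). Its groups did not overlap. Axin2, a target gene of Wnt signalling, read 2451, 2238 and 8398 in apCAFs 1, 2 and 3, against 334, 394 and 798 in nonapCAFs 4, 5 and 6 (7.58-fold, limma adjusted p = 0.077), again without overlap and with apCAFs 3 far above the rest. The ligand gene Ndp was at 0 to 11 in every library. limma called Axin2 and Fzd4 higher with a pseudocount of 10, among genes averaging 10 or more or 100 or more, and with a variance trend. Without apCAFs 3 it called 1 gene of this list, Apcdd1, lower in apCAFs.

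Among 24 lateral partners of tetraspanins, 4 rose and none fell, against 4.4% of all genes, with a median log2 fold change of 0.81. Ptgfrn, which encodes a main CD9 and CD81 partner, read 22341, 21769 and 31194 in apCAFs, against 10896, 10852 and 8363 in nonapCAFs (2.48-fold, limma adjusted p = 0.0393). Its relative Igsf3 was 4.61-fold (limma adjusted p = 0.0326), the integrin gene Itgb4 3.53-fold (limma adjusted p = 0.0149) and the peptidase gene Dpp4 8.77-fold higher (limma adjusted p = 0.0173). Without a single library these calls numbered 0 (without apCAFs 1), 1 (without apCAFs 2, nonapCAFs 4 or nonapCAFs 5), 2 (without nonapCAFs 6) and 5 (without apCAFs 3), and with an experiment term 0 under each pairing. Igsf8, the other immunoglobulin partner, read 10719 to 13046 in apCAFs and 9572 to 10290 in nonapCAFs (limma adjusted p = 0.43). Of the 24 genes, 14 had every apCAFs library above and 2 every one below, against 17.1% and 15.4% of all genes. The 2 below were the laminin-binding integrin genes Itga3 and Itga6, named after their values were seen. Itga6 read 4726 to 10425 in apCAFs and 14970 to 16275 in nonapCAFs (limma adjusted p = 0.181).

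Of 22 genes of multivesicular bodies and released vesicles, the compartment where CD63 resides, 3 rose and none fell, against 4.4% of all genes, and the median log2 fold change was 0.05. Smpd3, which encodes a neutral sphingomyelinase, read 3129, 3068 and 3666 in apCAFs, against 272, 300 and 156 in nonapCAFs (14.0-fold, limma adjusted p = 0.01004). Timp1, a protease inhibitor that binds CD63, was 3.42-fold (limma adjusted p = 0.018) and Sytl4, a Rab27 effector gene, 4.09-fold higher (limma adjusted p = 0.025). Without apCAFs 1 or 2, or any nonapCAFs library, only Smpd3 was called, and with an experiment term no gene of the list was called under any pairing. Of the 22 genes, 9 had every apCAFs library above and 1, Vps4b, every one below, against 17.1% and 15.4% of all genes. Chmp4b, Chmp4c and Vps4a were among the 9. The sorting genes Pdcd6ip and Tsg101, named after their values were seen, overlapped between the groups. Pdcd6ip read 18598 to 20509 in apCAFs and 19875 to 21258 in nonapCAFs. Tsg101 read 464 to 559 in apCAFs and 548 to 651 in nonapCAFs.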

How the data were processed

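The labels list 6 libraries, 3 of apCAFs and 3 of nonapCAFs. Trim Galore, Bowtie2, DESeq2 and mm10 appear in the submitters' processing notes with no role or version; counter, annotation and strandedness are not stated there. Per the file headers, the deposited values are normalized counts, which hold only whole numbers and were treated as a score, not as raw counts. The authors' deposited table also gives log2 values, a fold change as a ratio, p-values from DESeq2 and a GC percent per gene, none of which enter the results.

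The 36443 genes with any value above 0 entered 1 limma fit (version 3.58.1, R 4.3.3) of log2(value + 1) on group alone, with no variance trend. Two-sided p-values were adjusted by Benjamini and Hochberg's method across these genes and called at 0.05; every adjusted p in the text is from this fit. The pseudocount of 1 makes fold changes of faint genes too small, and SE is limma's moderated standard error. Of 55298 gene identifiers, 55117 were found in GENCODE M21 and 54862 had identical coordinates; gene lengths are the union of its exons. Copies were searched with BLAST+ 2.17.0. All 10 genes matched a RefSeq promoter, and Cd82 had 4 starts. The single values of 1 marker gene are not reported here. Members and lists were chosen with earlier results of these data known. Genes named from a list are up to 4 called ones with the smallest p, or the 2 most abundant where fewer than 2 were called; other list genes were chosen after their values were seen. Alternatives were other pseudocounts, filters, scalings, a variance trend, averaged close libraries, an experiment term and leaving out each library; the filter at a mean of 100 and the sums with copies were added after seeing the data.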

Additional observations from a re-analysis of the deposited data

How the results depend on the processing

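limma called 1602 genes in all (1425 higher and 177 lower in apCAFs), 2527 with a pseudocount of 10, 2465 among genes averaging 10 or more, 3453 with a variance trend and 2748 among genes averaging 100 or more, the last chosen after seeing the data. It called 0 with the close libraries averaged (4706 at an unadjusted p under 0.05) and 0 under each of the 6 experiment pairings (5316 to 6680 at an unadjusted p under 0.05). Leaving out 1 library gave 310 to 1791. Higher genes made up 89.0% of calls, 78.9% with quantile normalization, and 58.4% and 60.3% without nonapCAFs 4 and 5. Scaling to library totals moved the median log2 fold change of all genes from -0.04 to -0.18, and quantile normalization to -0.19.

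For the other tetraspanins (2 called), the ADAM10 list (6), the Norrin list (0), the lateral partners (4) and the vesicle list (3), the averaged libraries and all pairings gave 0. A pseudocount of 10 gave 4, 6, 2, 7 and 4 in that order; genes averaging 10 or more gave 4, 6, 2, 8 and 4; the variance trend gave 6, 8, 2, 11 and 5; genes averaging 100 or more gave 7, 7, 2, 9 and 6. Leaving out 1 library gave 2 to 3, 1 to 7, 0 to 1, 0 to 5 and 1 to 3. The cause was not tested. No log2 fold change of the 10 tetraspanins changed sign under any alternative run. Which libraries share an experiment is unknown, since the groups share no replicate number and no label ties a library to an experiment. The experiment term was therefore fitted under all 6 possible pairings, and each ended every call. Each pairing left 2 residual degrees of freedom, against 4 in the main fit, and so did averaging the close libraries. With so few, the loss of calls does not show that the differences are absent. Sequencing depth is unknown, so counting error could not be set beside the faint Tspan33, Tspan15 and Tspan8.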
